A study of Mus musculus with 16 samples.

Results

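The 41 genes described here carry glucose through the mouse liver: its uptake, glycolysis, gluconeogenesis, glycogen storage, entry of fructose and the pentose phosphate pathway, with the glucagon receptor. They were picked by gene symbol out of 53465 rows of a liver RNA-seq count table, and all 41 were found and passed the filter on low counts. Aldoa has 2 rows, of which the one with nearly all the counts was used. The livers came from C57BL/6 mice, 29 to 30 weeks old, that ate a control diet (CD) or a high-fat diet (HFD) for 16 weeks and then, with PFOA or vehicle, for a further 8 weeks. PFOA is perfluorooctanoic acid, a persistent fluorinated surfactant known in rodents as an activator of the nuclear receptor PPARA. There were 4 groups of 4 mice: CD_PFOA, HFD_PFOA, HFD_vehicle and CD_vehicle, with vehicle-treated mice on the matching diet as the controls for PFOA and CD mice with the matching treatment as the controls for HFD. Each mouse is 1 library and 1 biological replicate. The sources used here give neither the PFOA dose and route nor the sex of the mice, nor whether they had fasted. RNA came from whole liver, so for every result that follows, fewer cells of a type and less RNA per cell cannot be told apart.

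As background, a liver cell takes up glucose through the transporter GLUT2 (Slc2a2) and traps it as glucose 6-phosphate, from which glycolysis runs to pyruvate, glycogen synthesis stores glucose units, and the pentose phosphate pathway makes NADPH and ribose. Gluconeogenesis runs the other way in fasting: pyruvate carboxylase, phosphoenolpyruvate carboxykinase, fructose bisphosphatase and glucose 6-phosphatase bypass the irreversible steps of glycolysis, and glucose is released to the blood. Glucagon, through cAMP, raises the gluconeogenic genes, while insulin, and the carbohydrate-sensing factor ChREBP, raise genes such as Pklr.

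Libraries held 14456524 to 25778125 counts, and the shallowest were HFD_vehicle 3 and HFD_vehicle 2. Values are counts scaled to 1e+06 (CPM) per TMM-scaled library, and a gene is called when the adjusted p (Benjamini-Hochberg over 14998 genes, edgeR quasi-likelihood test on all 16 libraries) is under 0.05. Defining hepatocyte transcripts were abundant in every library: 7 markers summed to 58014 to 75147 CPM in CD_PFOA, against 94917 to 134398 CPM in CD_vehicle, and to 52494 to 63043 CPM in HFD_PFOA, against 79379 to 93497 CPM in HFD_vehicle. Of these 7 markers, 6 fell with PFOA on CD and 7 on HFD, so they moved with the results below; their part in them was not tested. Of 10 macrophage and Kupffer markers, 0 were called with PFOA on either diet by edgeR or DESeq2, 1 on CD and 2 on HFD having an unadjusted edgeR p under 0.05 (median log2 fold change 0.25 on CD and -0.09 on HFD). Other lists were called in part by edgeR, which called 24.4% of all genes tested on CD and 16.5% on HFD. With PFOA on CD, 3 of 4 proliferation, 3 of 7 sinusoidal, 2 of 7 stellate and 1 of 4 lipid-associated macrophage markers rose. Falling on CD were 5 of 8 acute phase genes, 2 of 6 B cell markers (median of the 6, -2.65), 1 of 5 erythroid and 1 of 7 sinusoidal markers. The stellate (28.6%), lipid-associated macrophage (25.0%) and erythroid (20.0%) shares on CD were near that of all genes. DESeq2 called 2 acute phase genes, 0 B cell, 4 proliferation, 3 stellate and 1 neutrophil markers on CD. On HFD 1 sinusoidal marker (14.3% of its list) rose. There 1 stellate marker (14.3%), 1 lipid-associated macrophage marker (25.0%) and 1 acute phase gene (12.5%) fell. DESeq2 on HFD called 0 acute phase genes and 2 lipid-associated macrophage, 1 proliferation and 1 adipocyte markers. Of 4 exocrine pancreas markers, Prss1, Amy2a5 and Cpa1 were at 0 in every library, and Cela1 was detected. The list summed to 3.11 to 9.69 CPM in CD_PFOA, against 3.67 to 10.7 CPM in CD_vehicle. On HFD it summed to 5.56 to 7.44 CPM in HFD_PFOA, against 3.99 to 5.98 CPM in HFD_vehicle. Among 12 circadian clock genes, 5 rose and 4 fell with PFOA on CD, and 4 rose and 4 fell on HFD; the sources used here do not give the hour of collection. CD_vehicle livers 1 and 4 stand apart from the other pair of their group. Acute phase transcripts (8 genes) summed to 21547 CPM in CD_vehicle 1, against 7158 to 8419 CPM in the other 3, and B cell transcripts (6 genes) to 325 CPM in CD_vehicle 4, against 8.52 to 14.5 CPM in the other 3. Calls that change when either or both are left out are named beside the gene or the count.

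The 41 genes together made up 0.451% to 0.551% of all counts in CD_PFOA livers, against 0.900% to 0.977% in CD_vehicle livers, and 0.491% to 0.542% in HFD_PFOA livers, against 0.894% to 0.924% in HFD_vehicle livers. No PFOA liver reached the share of any vehicle liver. On CD, 20 of the 41 were called with PFOA: 19 fell and 1, Aldoa, rose. Over all genes tested, 24.4% were called in that comparison, 12.6% lower and 11.8% higher, and with scaling by library totals the 41 had 15 lower and 1 higher. On HFD, 15 of the 41 were called with PFOA, 14 lower and 1 higher, against 16.5% of all genes tested, 7.91% lower and 8.6% higher. The median log2 fold change of the 41 was -0.30 on CD and -0.25 on HFD, while that of all genes tested was -0.0024 and 0.0074. The 41 were chosen with earlier results of these data known, so these counts and medians are a description and not a test. Without CD_vehicle 1 and 4 the counts called were 19 on CD and 17 on HFD. Among all genes tested that fit called 3547 and 3105, against 3656 and 2477 with all livers. On both diets 13 genes fell: Slc2a2, Eno1, Pklr, Ldha, Pck1, Fbp1, Slc37a4, Gbe1, Pygl, Ugp2, Ppp1r3b, Ppp1r3c and Khk. Aldoa was higher on both, and 0 genes were called in opposite directions. Called on CD alone were Pfkm, Pfkfb3, G6pc, Gcgr, G6pdx and Tkt, and called on HFD alone was Pcx. Called on neither were 20 genes.

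**Figure D1:**
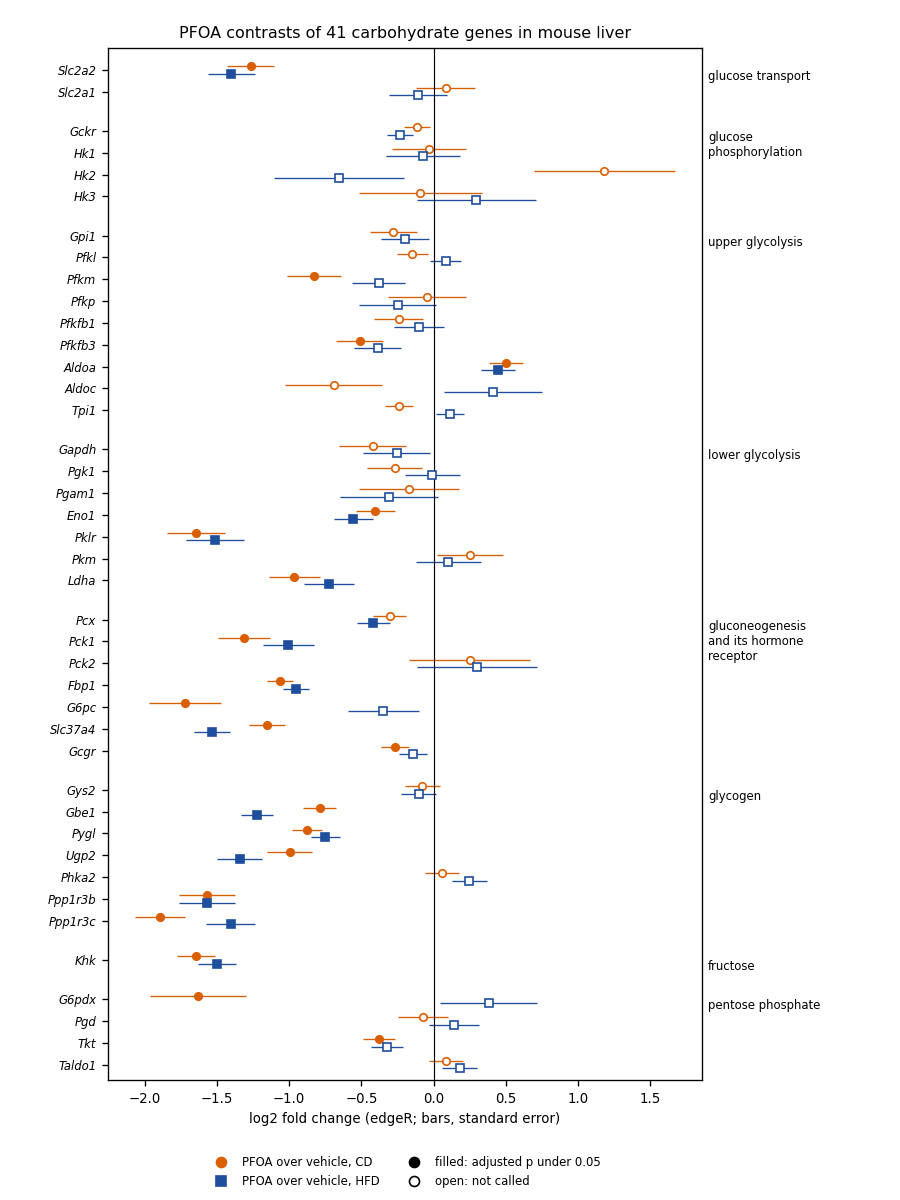
Log2 fold change with PFOA over vehicle for each of the 41 genes, by pathway arm, on CD (orange circles) and on HFD (blue squares), with bars for the standard error and filled symbols for an edgeR adjusted p under 0.05. Of the 41, 20 are filled on CD and 15 on HFD, and Aldoa is the single filled symbol right of 0 on each diet.

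The arms, small lists each, differed in how many of their members were called. Over all genes tested, 24.4% were called on CD (12.6% lower) and 16.5% on HFD (7.91% lower). Upper glycolysis, at 33.3% on CD and 11.1% on HFD, was not far from those shares. Of 7 genes of gluconeogenesis and its hormone receptor, 5 fell with PFOA on CD (median log2 fold change of the 7, -1.06) and 4 on HFD (median -0.42). Of 7 glycogen genes, 5 fell on CD (median -0.88) and 5 on HFD (median -1.22). Of 7 lower glycolysis genes, 3 fell on each diet (medians -0.40 and -0.31). Of 9 upper glycolysis genes, 2 fell and 1 rose on CD and 1 rose on HFD (medians -0.24 and -0.10). Of 4 glucose phosphorylation genes, edgeR called 0 on either diet (medians -0.06 and -0.15); Hk2 on CD and Gckr on HFD had an unadjusted p under 0.05, and DESeq2 called Hk2 on CD. Slc2a2, of 2 transporters, and Khk, the one fructose gene, fell on both diets. Of 4 pentose phosphate genes, 2 fell on CD (median -0.23) and 0 were called on HFD (median 0.16); Tkt had an unadjusted p under 0.05 on HFD, and DESeq2 called it lower. Whether one arm moved more than another was not tested.

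Promoter letters are shown for 4 of the 13 genes that were lower with PFOA on both diets, chosen after their values were known because each holds a searched motif: Pklr for the carbohydrate response element, Pck1 for the cAMP response element, and Khk and Ppp1r3c for an E-box. Windows run from 250 bases before to 50 bases after a RefSeq transcript start (build GRCm38.p6, 5′ to 3′ on the gene's strand), and capitals mark the motifs, both strands having been searched.
Pklr, chr3:89136373-89136672, + strand: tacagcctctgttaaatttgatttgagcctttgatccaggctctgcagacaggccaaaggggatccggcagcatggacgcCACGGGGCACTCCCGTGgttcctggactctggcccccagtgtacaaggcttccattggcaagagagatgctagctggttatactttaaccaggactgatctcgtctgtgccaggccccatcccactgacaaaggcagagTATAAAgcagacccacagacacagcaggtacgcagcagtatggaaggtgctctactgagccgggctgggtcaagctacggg
Pck1, chr2:173152823-173153122, + strand: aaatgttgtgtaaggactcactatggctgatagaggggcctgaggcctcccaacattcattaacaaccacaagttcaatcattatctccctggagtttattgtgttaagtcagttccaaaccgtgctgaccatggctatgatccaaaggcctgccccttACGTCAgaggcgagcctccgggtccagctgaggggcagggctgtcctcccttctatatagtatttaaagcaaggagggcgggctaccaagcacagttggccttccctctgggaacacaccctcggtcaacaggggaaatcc
Khk, chr5:30921309-30921608, + strand: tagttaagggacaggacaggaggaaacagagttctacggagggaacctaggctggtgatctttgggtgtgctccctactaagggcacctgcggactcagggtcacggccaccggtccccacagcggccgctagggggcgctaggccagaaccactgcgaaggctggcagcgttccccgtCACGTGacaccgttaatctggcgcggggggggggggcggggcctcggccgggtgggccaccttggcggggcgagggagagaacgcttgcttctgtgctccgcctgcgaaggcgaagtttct
Ppp1r3c, chr19:36736555-36736854, - strand: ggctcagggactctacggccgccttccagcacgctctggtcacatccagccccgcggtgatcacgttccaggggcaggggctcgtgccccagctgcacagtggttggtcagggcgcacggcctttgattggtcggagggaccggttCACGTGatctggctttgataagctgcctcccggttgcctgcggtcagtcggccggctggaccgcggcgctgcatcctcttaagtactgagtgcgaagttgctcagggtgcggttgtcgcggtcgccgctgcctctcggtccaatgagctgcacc
In Pklr, which has 2 windows, the downstream one is shown, and its capitals are the carbohydrate response element pattern (a pair of E-box-like sites with 5 bases between, 170 to 154 bases before the start) and the TATA box TATAAA 31 to 26 bases before it. The capitals in Pck1 are the core of a cAMP response element, ACGTCA, 91 to 86 bases before the start. In Khk the E-box CACGTG lies 71 to 66 bases before the start, and in Ppp1r3c 104 to 99 bases before it. Of the 41 genes 39 have a window (60 windows in all), and Gys2 and Ppp1r3b have none. The carbohydrate response element pattern was in 1 of the 60 windows (1.67%), that of Pklr, and in 0.119% of all 32851 windows. CACGTG was in 6 of the 60 (10%), those of Khk, Ldha, Pcx, Pfkfb3, Pfkm and Ppp1r3c, and in 7.15% of all windows. ACGTCA was in 7 of the 60 (11.7%), of Hk2, Ldha, Pck1, Pfkfb3, Pkm and Slc37a4, and in 7.51% of all. TATAAA was in 5 of the 60 (8.33%) and in 13.6% of all. A pair of AGGTCA sites in direct repeat with 1 base between, a sequence that PPARA binds with RXR, was in 0 of the 60 windows and in 0.0396% of all. Only that exact pair was searched, and only within these windows. At so low a share, 0 of 60 cannot show whether the members differ from all windows. All the motifs are matches of letters, and none of them overlapped another in the 4 windows shown.

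In gluconeogenesis Pck1, Fbp1 and Slc37a4 fell with PFOA on both diets, G6pc and Gcgr were called on CD, and Pcx was called on HFD. Pck1 encodes the cytosolic phosphoenolpyruvate carboxykinase, the first committed enzyme of the pathway and a classic target of glucagon. Pck1 measured 585, 967, 989.7 and 712 CPM in CD_PFOA livers, against 2741, 1823, 1735 and 1793 CPM in CD_vehicle livers. On HFD Pck1 had 889.9, 622, 888 and 646 CPM in HFD_PFOA livers, against 1341, 1706, 1614 and 1454 CPM in HFD_vehicle livers. All PFOA livers lay below all vehicle livers on both diets, and CD_vehicle 1 stood above the other 3 of its group. The Pck1 log2 fold change with PFOA was -1.31 ± 0.18 on CD (SE; edgeR adjusted p = 1.7e-05) and -1.01 ± 0.18 on HFD (adjusted p = 0.00042). Fbp1, the fructose 1,6-bisphosphatase of liver, fell on both diets. Fbp1 measured 431, 530.0, 582 and 534 CPM in CD_PFOA livers, against 1073, 1107, 1097 and 1062 CPM in CD_vehicle livers. On HFD Fbp1 had 515, 455, 467 and 471 CPM in HFD_PFOA livers, against 912, 867, 931 and 990.3 CPM in HFD_vehicle livers. The 4 CD_vehicle livers were within a narrow band, and no PFOA liver came near its vehicle group. The Fbp1 log2 fold change with PFOA was -1.06 ± 0.09 on CD (SE; edgeR adjusted p = 4.2e-08) and -0.96 ± 0.09 on HFD (adjusted p = 2.4e-07). That is 2.09-fold lower on CD and 1.94-fold lower on HFD.

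The last step, release of free glucose, needs G6pc, the catalytic subunit of glucose 6-phosphatase, and Slc37a4, the transporter that brings glucose 6-phosphate into the endoplasmic reticulum. G6pc measured 156, 168, 231 and 174 CPM in CD_PFOA livers, against 815, 774, 484 and 327 CPM in CD_vehicle livers. On HFD G6pc had 260.2, 136, 223 and 218.7 CPM in HFD_PFOA livers, against 272, 293, 319.7 and 182 CPM in HFD_vehicle livers. On CD the groups were apart, with CD_vehicle 1 and 2 higher than 3 and 4, and on HFD they overlapped, HFD_vehicle 4 lying among the PFOA livers. The G6pc log2 fold change with PFOA was -1.72 ± 0.25 on CD (SE; edgeR adjusted p = 3.5e-05) and -0.35 ± 0.24 on HFD (adjusted p = 0.39, not called). Its difference between diets is taken up with the interaction. Slc37a4 measured 45.8, 61.4, 75.1 and 54.5 CPM in CD_PFOA livers, against 129, 139, 143 and 116 CPM in CD_vehicle livers. On HFD Slc37a4 had 40.1, 35.02, 40.8 and 37.7 CPM in HFD_PFOA livers, against 101, 104, 130.0 and 111 CPM in HFD_vehicle livers. PFOA and vehicle livers did not overlap on either diet. The Slc37a4 log2 fold change with PFOA was -1.16 ± 0.13 on CD (SE; edgeR adjusted p = 1.2e-06) and -1.54 ± 0.13 on HFD (adjusted p = 3.9e-08). Thus the transporter fell on both diets, 2.23-fold on CD and 2.90-fold on HFD, and the phosphatase was called on CD.

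Pcx, pyruvate carboxylase of the mitochondria, makes the oxaloacetate from which the pathway starts. Pcx measured 427, 459.8, 509 and 529 CPM in CD_PFOA livers, against 760.2, 522, 591 and 501 CPM in CD_vehicle livers. On HFD Pcx had 539, 464, 459 and 472 CPM in HFD_PFOA livers, against 669, 677, 597 and 639 CPM in HFD_vehicle livers. The HFD groups were apart and the CD groups overlapped. The Pcx log2 fold change with PFOA was -0.30 ± 0.12 on CD (SE; edgeR adjusted p = 0.0628, not called) and -0.42 ± 0.12 on HFD (adjusted p = 0.016). On CD, DESeq2 called it lower (adjusted p = 0.0499), as did edgeR without CD_vehicle 4 (-0.38, adjusted p = 0.018), and the interaction of Pcx was -0.11 ± 0.16 (edgeR adjusted p = 0.87). Pck2, the mitochondrial carboxykinase, was scarce. Pck2 measured 2.45, 3.89, 3.03 and 1.68 CPM in CD_PFOA livers, against 1.67, 1.33, 1.40 and 4.87 CPM in CD_vehicle livers. On HFD Pck2 had 1.61, 4.01, 3.50 and 3.95 CPM in HFD_PFOA livers, against 1.97, 2.14, 2.80 and 3.71 CPM in HFD_vehicle livers. Its groups overlapped on both diets. The Pck2 log2 fold change with PFOA was 0.25 ± 0.42 on CD (SE; edgeR adjusted p = 0.72, not called) and 0.30 ± 0.42 on HFD (adjusted p = 0.72, not called). Gcgr encodes the glucagon receptor, through which fasting raises this arm. Gcgr measured 124, 130.3, 142 and 141 CPM in CD_PFOA livers, against 200.1, 148, 152 and 147 CPM in CD_vehicle livers. On HFD Gcgr had 136, 137, 122 and 125 CPM in HFD_PFOA livers, against 146, 144, 140.0 and 146 CPM in HFD_vehicle livers. PFOA livers were below vehicle livers on both diets, by a small margin on each. The Gcgr log2 fold change with PFOA was -0.27 ± 0.10 on CD (SE; edgeR adjusted p = 0.0496) and -0.14 ± 0.10 on HFD (adjusted p = 0.36, not called). The CD call was lost in 17 of 23 alternatives, among them leaving out CD_vehicle 1, the highest liver, which gave -0.15 (adjusted p = 0.19).

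**Figure D2:**
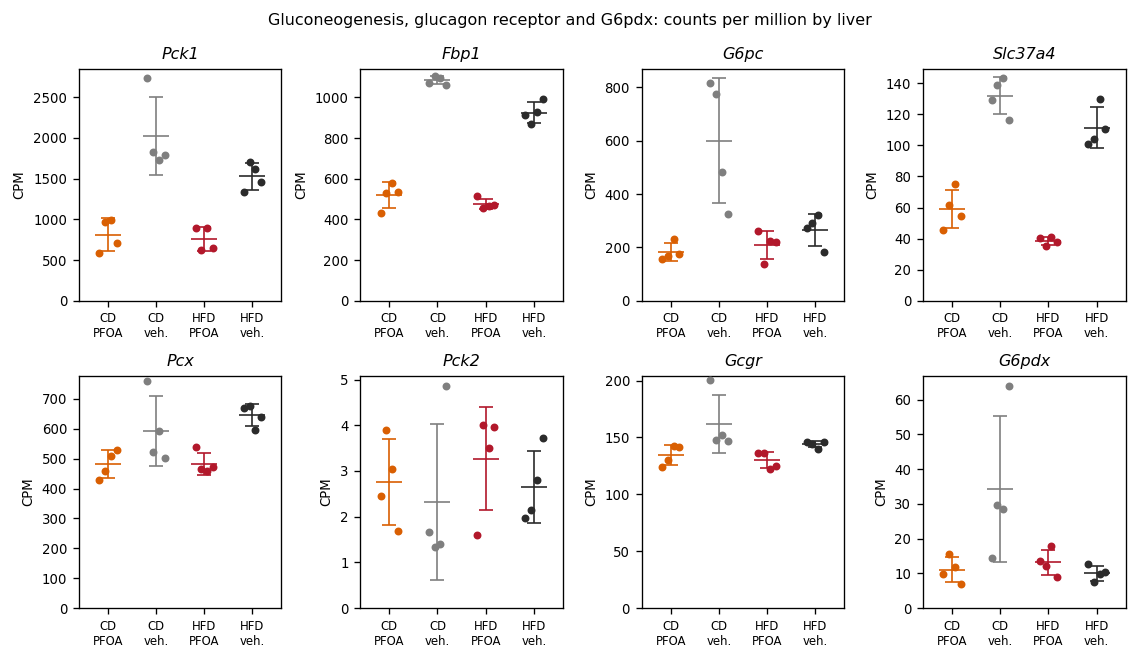
CPM of 8 genes in each liver (dots), with the group mean (bar) and SD (whiskers), n = 4, groups from left to right CD_PFOA, CD_vehicle, HFD_PFOA and HFD_vehicle, each axis starting at 0. PFOA livers of Pck1, Fbp1 and Slc37a4 sit below all vehicle livers of the same diet, while the group means of G6pc and G6pdx are highest in CD_vehicle.

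In the glycogen arm the transcripts of both scaffolds, the branching enzyme, the phosphorylase and the enzyme that makes UDP-glucose fell on both diets, and that of the synthase was not called. Ppp1r3b and Ppp1r3c are glycogen-targeting subunits that bring protein phosphatase 1 to glycogen, where it activates the synthase. Ppp1r3b measured 105, 227.8, 176 and 196 CPM in CD_PFOA livers, against 397, 616, 629 and 449 CPM in CD_vehicle livers. On HFD Ppp1r3b had 114, 164, 124 and 122 CPM in HFD_PFOA livers, against 359, 369.6, 454 and 378 CPM in HFD_vehicle livers. Among CD_vehicle livers, 1 and 4 were lower than 2 and 3, and all were above every PFOA liver. The Ppp1r3b log2 fold change with PFOA was -1.57 ± 0.19 on CD (SE; edgeR adjusted p = 5.4e-06) and -1.57 ± 0.19 on HFD (adjusted p = 7.7e-06). Ppp1r3c measured 23.04, 18.3, 30.1 and 34.9 CPM in CD_PFOA livers, against 99.8, 98.6, 94.6 and 103 CPM in CD_vehicle livers. On HFD Ppp1r3c had 37.3, 27.7, 23.01 and 24.2 CPM in HFD_PFOA livers, against 64.1, 73.5, 88.8 and 70.9 CPM in HFD_vehicle livers. The 4 CD_vehicle livers were nearly level, and PFOA livers were apart from vehicle livers on both diets. The Ppp1r3c log2 fold change with PFOA was -1.90 ± 0.17 on CD (SE; edgeR adjusted p = 1.1e-07) and -1.41 ± 0.17 on HFD (adjusted p = 6.4e-06). That made Ppp1r3c, at 3.72-fold lower, the gene with the largest decrease of the 41 on CD, and Ppp1r3b, at 2.98-fold lower, that on HFD.

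Pygl is the liver glycogen phosphorylase, which releases glucose 1-phosphate from glycogen. Pygl measured 289.5, 337, 378 and 369 CPM in CD_PFOA livers, against 505, 689, 701 and 629.7 CPM in CD_vehicle livers. On HFD Pygl had 337, 308, 316 and 312 CPM in HFD_PFOA livers, against 543, 531, 526 and 537 CPM in HFD_vehicle livers. No PFOA liver overlapped a vehicle liver of its diet. The Pygl log2 fold change with PFOA was -0.88 ± 0.10 on CD (SE; edgeR adjusted p = 2.9e-06) and -0.75 ± 0.10 on HFD (adjusted p = 2.7e-05). Ugp2, which makes the UDP-glucose that the synthase uses, and Gbe1, the branching enzyme, moved the same way. Ugp2 averaged 274 ± 39.2 CPM in CD_PFOA and 546 ± 142 CPM in CD_vehicle livers, and 237 ± 22.1 CPM in HFD_PFOA and 601 ± 59.1 CPM in HFD_vehicle livers (SD, n = 4 each). Gbe1 averaged 141 ± 21.2 CPM in CD_PFOA and 243 ± 36.6 CPM in CD_vehicle livers, and 119 ± 8.03 CPM in HFD_PFOA and 278 ± 13.00 CPM in HFD_vehicle livers (SD, n = 4 each). Both were apart between PFOA and vehicle on each diet. The Ugp2 log2 fold change with PFOA was -0.995 ± 0.16 on CD (SE; edgeR adjusted p = 8.3e-05) and -1.34 ± 0.16 on HFD (adjusted p = 4.2e-06). The Gbe1 log2 fold change with PFOA was -0.79 ± 0.11 on CD (SE; edgeR adjusted p = 2.9e-05) and -1.22 ± 0.11 on HFD (adjusted p = 2e-07). Gys2 is the liver glycogen synthase. Gys2 measured 139.9, 153, 159 and 177 CPM in CD_PFOA livers, against 126, 196, 186 and 156 CPM in CD_vehicle livers. On HFD Gys2 had 175, 158, 136 and 151 CPM in HFD_PFOA livers, against 174, 159, 172 and 159.7 CPM in HFD_vehicle livers. Its groups overlapped, CD_vehicle 1 being the lowest of its group. The Gys2 log2 fold change with PFOA was -0.08 ± 0.12 on CD (SE; edgeR adjusted p = 0.69, not called) and -0.10 ± 0.12 on HFD (adjusted p = 0.65, not called). A p that misses the threshold does not show that Gys2 was the same in both groups. Phka2, a regulatory subunit of phosphorylase kinase, was not called either. Phka2 averaged 24.8 ± 1.82 CPM in CD_PFOA and 23.9 ± 3.68 CPM in CD_vehicle livers, and 23.9 ± 2.98 CPM in HFD_PFOA and 20.1 ± 1.41 CPM in HFD_vehicle livers (SD, n = 4 each). The Phka2 log2 fold change with PFOA was 0.06 ± 0.12 on CD (SE; edgeR adjusted p = 0.77, not called) and 0.25 ± 0.12 on HFD (adjusted p = 0.18, not called).

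**Figure D3:**
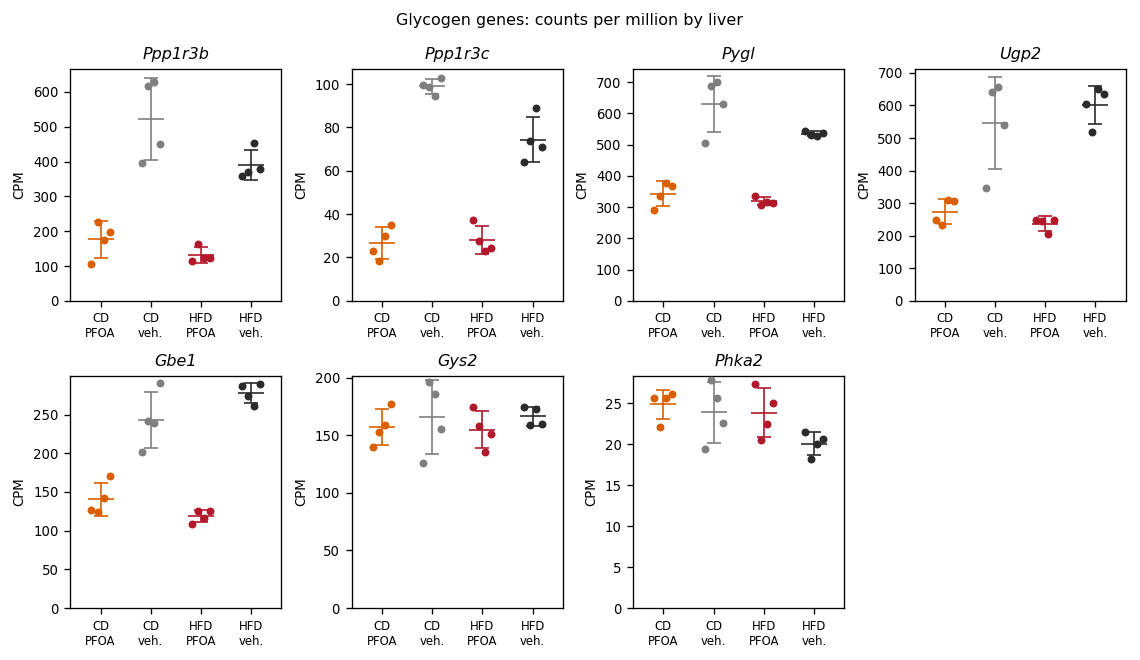
CPM of the 7 glycogen genes in each liver (dots), with the group mean (bar) and SD (whiskers), n = 4, groups from left to right CD_PFOA, CD_vehicle, HFD_PFOA and HFD_vehicle, each axis starting at 0. Ppp1r3b, Ppp1r3c, Pygl, Ugp2 and Gbe1 are lower in every PFOA liver than in any vehicle liver of the same diet, and Gys2 and Phka2 overlap.

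Of the genes for the entry of glucose and fructose, Slc2a2 and Khk fell on both diets and Slc2a1 was not called; whether Slc2a1 differed from the other pair was not tested. Slc2a2 encodes GLUT2, the main glucose transporter of hepatocytes. Slc2a2 measured 141, 148, 210.4 and 249 CPM in CD_PFOA livers, against 338, 522, 495 and 449 CPM in CD_vehicle livers. On HFD Slc2a2 had 141, 161, 167 and 189 CPM in HFD_PFOA livers, against 398, 426, 464 and 451 CPM in HFD_vehicle livers. CD_vehicle 1 was the lowest of its group and still above every PFOA liver. The Slc2a2 log2 fold change with PFOA was -1.27 ± 0.16 on CD (SE; edgeR adjusted p = 8.3e-06) and -1.40 ± 0.16 on HFD (adjusted p = 3.9e-06). Slc2a1 encodes GLUT1, better known from red cells and brain endothelium. Slc2a1 measured 7.80, 13.2, 13.9 and 11.8 CPM in CD_PFOA livers, against 15.3, 10.8, 7.35 and 10.6 CPM in CD_vehicle livers. On HFD Slc2a1 had 16.7, 15.9, 12.8 and 12.2 CPM in HFD_PFOA livers, against 12.4, 16.6, 15.9 and 17.2 CPM in HFD_vehicle livers. These groups overlapped on both diets. The Slc2a1 log2 fold change with PFOA was 0.08 ± 0.20 on CD (SE; edgeR adjusted p = 0.81, not called) and -0.11 ± 0.20 on HFD (adjusted p = 0.81, not called). Khk, ketohexokinase, phosphorylates fructose and so opens its metabolism in liver. Khk measured 121, 134, 175 and 187 CPM in CD_PFOA livers, against 399, 484, 510.1 and 545 CPM in CD_vehicle livers. On HFD Khk had 124, 125, 101 and 122 CPM in HFD_PFOA livers, against 345, 319.5, 346 and 325 CPM in HFD_vehicle livers. Each PFOA liver was far below each vehicle liver of its diet. The Khk log2 fold change with PFOA was -1.65 ± 0.13 on CD (SE; edgeR adjusted p = 1.6e-08) and -1.50 ± 0.13 on HFD (adjusted p = 7.1e-08). Khk thus stood at 3.13-fold lower on CD and 2.83-fold lower on HFD.

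Glucose phosphorylation is controlled in liver in part by Gckr, a nuclear regulatory protein of that step. Gckr measured 126, 129.7, 148 and 139 CPM in CD_PFOA livers, against 126, 161, 161 and 140.5 CPM in CD_vehicle livers. On HFD Gckr had 112, 110.3, 104 and 122 CPM in HFD_PFOA livers, against 129.8, 127, 138 and 133 CPM in HFD_vehicle livers. The CD groups overlapped, and on HFD the PFOA livers were just below the vehicle livers. The Gckr log2 fold change with PFOA was -0.12 ± 0.09 on CD (SE; edgeR adjusted p = 0.38, not called) and -0.23 ± 0.09 on HFD (adjusted p = 0.086, not called). Without CD_vehicle 1 the HFD change was called (edgeR adjusted p = 0.041). Hk2, the insulin-responsive hexokinase of muscle and fat, was scarce. Hk2 measured 1.37, 1.90, 2.70 and 2.13 CPM in CD_PFOA livers, against 0.75, 0.412, 0.14 and 2.22 CPM in CD_vehicle livers. On HFD Hk2 had 2.96, 3.85, 3.97 and 2.39 CPM in HFD_PFOA livers, against 4.32, 6.32, 4.59 and 5.48 CPM in HFD_vehicle livers. CD_vehicle 4 was above the other 3 of its group, and on HFD every PFOA liver was below every vehicle liver. The Hk2 log2 fold change with PFOA was 1.18 ± 0.49 on CD (SE; edgeR adjusted p = 0.088, not called) and -0.65 ± 0.45 on HFD (adjusted p = 0.38, not called). Without CD_vehicle 4 the CD change was 2.19 (adjusted p = 6.2e-04). With that liver kept, DESeq2 (1.21, adjusted p = 0.0397) and edgeR with no filter on low counts (1.19, adjusted p = 0.0456) also called Hk2 higher on CD. Hk1, the hexokinase of most tissues, and Hk3, that of white blood cells, were low too: Hk1 averaged 5.22 ± 1.83 CPM in CD_PFOA and 5.33 ± 1.91 CPM in CD_vehicle livers (SD, n = 4 each). Hk3 averaged 3.05 ± 2.03 CPM in CD_PFOA and 3.25 ± 1.595 CPM in CD_vehicle livers, and 6.91 ± 1.11 CPM in HFD_PFOA and 5.60 ± 1.35 CPM in HFD_vehicle livers (SD, n = 4 each). Neither was called in any comparison.

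In lower glycolysis, Pklr encodes the pyruvate kinase of liver and red cells and is the classic ChREBP target. Pklr measured 85.4, 121, 163 and 174 CPM in CD_PFOA livers, against 253, 457, 504 and 488 CPM in CD_vehicle livers. On HFD Pklr had 87.5, 109, 98.6 and 93.2 CPM in HFD_PFOA livers, against 288, 278, 263 and 280.5 CPM in HFD_vehicle livers. CD_vehicle 1 was well under the other 3 of its group, and all PFOA livers were below all vehicle livers. The Pklr log2 fold change with PFOA was -1.65 ± 0.20 on CD (SE; edgeR adjusted p = 4.1e-06) and -1.51 ± 0.20 on HFD (adjusted p = 1.6e-05). Exons of Hcn3, on the opposite strand, cover 22.0% of the Pklr exons, and libraries were not stranded, so reads of the overlap cannot be told apart. Hcn3 itself had 54 to 96 counts in CD_PFOA and 216 to 756 counts in CD_vehicle livers, while Pklr had 2058 to 4267 counts in CD_PFOA and 6079 to 11433 counts in CD_vehicle livers. Pkm, the pyruvate kinase of other tissues, was not called with PFOA in all 16 libraries. Pkm measured 16.9, 13.5, 10.1 and 10.01 CPM in CD_PFOA livers, against 8.13, 7.41, 9.78 and 16.9 CPM in CD_vehicle livers. On HFD Pkm had 18.9, 16.9, 16.6 and 20.7 CPM in HFD_PFOA livers, against 17.9, 13.2, 15.5 and 21.5 CPM in HFD_vehicle livers. Groups overlapped on both diets, with CD_vehicle 4 the highest of its group. The Pkm log2 fold change with PFOA was 0.26 ± 0.23 on CD (SE; edgeR adjusted p = 0.47, not called) and 0.10 ± 0.22 on HFD (adjusted p = 0.84, not called). Without CD_vehicle 4 the CD change was 0.58 and was called (edgeR adjusted p = 0.0346).

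Ldha, lactate dehydrogenase A, interconverts pyruvate and lactate. Ldha measured 269.7, 351, 314 and 314 CPM in CD_PFOA livers, against 987, 459, 519.6 and 469 CPM in CD_vehicle livers. On HFD Ldha had 332, 294, 317 and 305 CPM in HFD_PFOA livers, against 548, 518, 480.5 and 517 CPM in HFD_vehicle livers. CD_vehicle 1 stood far above the other 3 of its group, and the PFOA livers were below every vehicle liver on both diets. The Ldha log2 fold change with PFOA was -0.96 ± 0.18 on CD (SE; edgeR adjusted p = 0.00043) and -0.72 ± 0.18 on HFD (adjusted p = 0.0066). Without CD_vehicle 1 the CD change was -0.63 (adjusted p = 3.1e-05). Eno1, enolase 1, makes phosphoenolpyruvate on the way down. Eno1 averaged 60.7 ± 8.29 CPM in CD_PFOA and 80.4 ± 19.9 CPM in CD_vehicle livers, and 55.8 ± 3.17 CPM in HFD_PFOA and 82.03 ± 5.92 CPM in HFD_vehicle livers (SD, n = 4 each). The HFD groups were apart and the CD groups overlapped. The Eno1 log2 fold change with PFOA was -0.40 ± 0.14 on CD (SE; edgeR adjusted p = 0.0357) and -0.56 ± 0.14 on HFD (adjusted p = 0.0072). The CD call of Eno1 was lost in 8 of 23 alternatives, among them leaving out CD_vehicle 4, which gave -0.25 (edgeR adjusted p = 0.14), and 26.0% of its 50-base words occur in transcripts of other genes. Gapdh, Pgk1 and Pgam1, the steps between aldolase and enolase, were low in CPM. Gapdh averaged 8.29 ± 1.88 CPM in CD_PFOA and 11.1 ± 1.39 CPM in CD_vehicle livers, and 9.12 ± 2.42 CPM in HFD_PFOA and 10.8 ± 3.69 CPM in HFD_vehicle livers (SD, n = 4 each). Pgk1 averaged 7.89 ± 1.93 CPM in CD_PFOA and 9.52 ± 1.58 CPM in CD_vehicle livers, and 8.10 ± 1.20 CPM in HFD_PFOA and 8.16 ± 0.904 CPM in HFD_vehicle livers (SD, n = 4 each). Pgam1 averaged 1.52 ± 0.338 CPM in CD_PFOA and 1.70 ± 0.568 CPM in CD_vehicle livers, and 2.13 ± 0.63 CPM in HFD_PFOA and 2.64 ± 0.769 CPM in HFD_vehicle livers (SD, n = 4 each). Many near-identical copies of these genes exist: 25.1% of the 50-base words of Gapdh, 53.9% of Pgk1 and 36.2% of Pgam1 are shared with transcripts of other genes. The sources used here do not say how reads that fit more than 1 place were counted, so their levels are uncertain, and edgeR called 0 of the 3 in any comparison, none with an unadjusted p under 0.05.

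**Figure D4:**
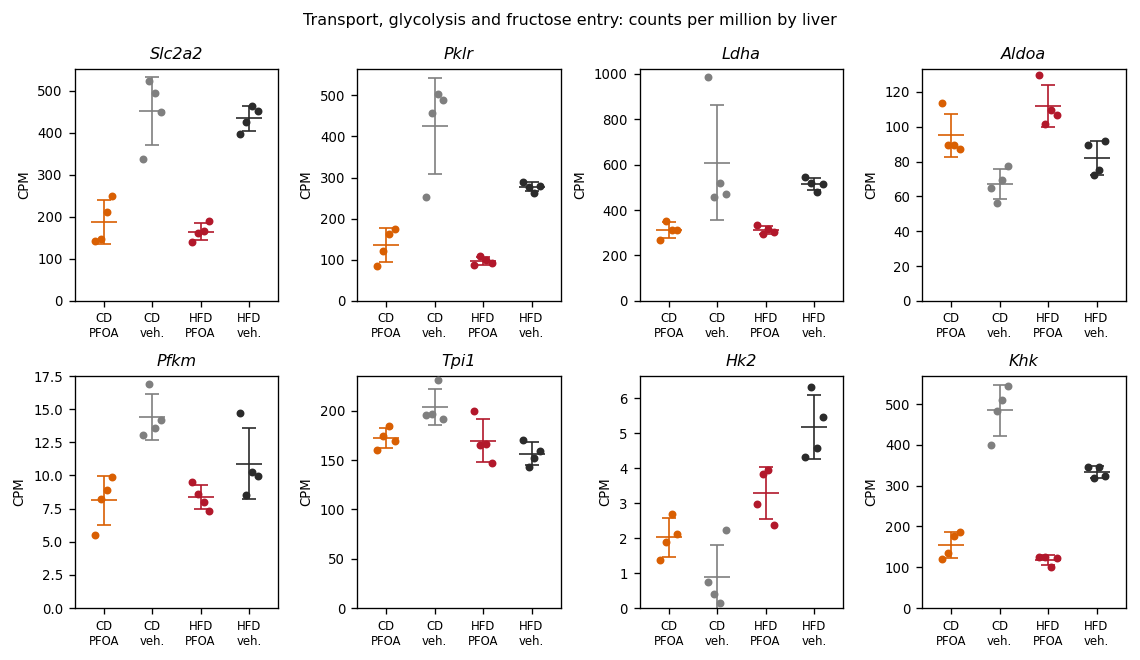
CPM of 8 transport, glycolysis and fructose genes in each liver (dots), with the group mean (bar) and SD (whiskers), n = 4, groups from left to right CD_PFOA, CD_vehicle, HFD_PFOA and HFD_vehicle, each axis starting at 0. Slc2a2, Pklr, Ldha and Khk are lower in every PFOA liver than in any vehicle liver of the same diet, Aldoa is higher, and Hk2 is highest in HFD_vehicle.

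Upper glycolysis held the one gene that rose. Aldoa, aldolase A, is the aldolase of muscle and most tissues. Aldoa measured 114, 89.7, 89.4 and 87.3 CPM in CD_PFOA livers, against 65.05, 56.3, 69.6 and 77.2 CPM in CD_vehicle livers. On HFD Aldoa had 129.6, 102, 109 and 107 CPM in HFD_PFOA livers, against 89.4, 72.4, 75.03 and 91.6 CPM in HFD_vehicle livers. PFOA livers were above vehicle livers on both diets, and CD_PFOA 1 stood apart as the highest of its group. The Aldoa log2 fold change with PFOA was 0.50 ± 0.12 on CD (SE; edgeR adjusted p = 0.0036) and 0.45 ± 0.12 on HFD (adjusted p = 0.011). That is 1.42-fold higher on CD and 1.36-fold on HFD; leaving out HFD_vehicle 2 gave 0.39 on HFD (adjusted p = 0.0502). Aldoc, the aldolase of brain, was scarce, and edgeR did not call it in any comparison. Aldoc averaged 5.07 ± 1.66 CPM in CD_PFOA and 8.19 ± 3.75 CPM in CD_vehicle livers, and 5.62 ± 0.797 CPM in HFD_PFOA and 4.17 ± 1.84 CPM in HFD_vehicle livers (SD, n = 4 each). For HFD in vehicle-treated mice its change of -0.96 (edgeR adjusted p = 0.079) was called by DESeq2 (adjusted p = 0.0396) and by edgeR with no filter (adjusted p = 0.021). The Aldoc interaction was 1.11 ± 0.47 (edgeR adjusted p = 0.38). Tpi1, triose phosphate isomerase, was not called with PFOA. Tpi1 averaged 172 ± 9.95 CPM in CD_PFOA and 204 ± 18.2 CPM in CD_vehicle livers, and 169.7 ± 21.8 CPM in HFD_PFOA and 156 ± 11.6 CPM in HFD_vehicle livers (SD, n = 4 each). The Tpi1 log2 fold change with PFOA was -0.24 ± 0.10 on CD (SE; edgeR adjusted p = 0.079, not called) and 0.12 ± 0.10 on HFD (adjusted p = 0.49, not called). Without CD_vehicle 1 and 4 its CD change was -0.32 and was called (edgeR adjusted p = 0.0427).

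Phosphofructokinase commits glucose to glycolysis, and its muscle form fell on CD. Pfkm averaged 8.11 ± 1.86 CPM in CD_PFOA and 14.4 ± 1.73 CPM in CD_vehicle livers, and 8.37 ± 0.938 CPM in HFD_PFOA and 10.9 ± 2.69 CPM in HFD_vehicle livers (SD, n = 4 each). The CD groups were apart and the HFD groups overlapped. The Pfkm log2 fold change with PFOA was -0.83 ± 0.19 on CD (SE; edgeR adjusted p = 0.0026) and -0.38 ± 0.19 on HFD (adjusted p = 0.19, not called). The interaction of Pfkm was 0.45 ± 0.26 (edgeR adjusted p = 0.57). Pfkl is the liver form. Pfkl measured 36.03, 30.3, 30.7 and 30.98 CPM in CD_PFOA livers, against 36.8, 35.4, 34.3 and 35.4 CPM in CD_vehicle livers. On HFD Pfkl had 51.1, 40.95, 35.1 and 35.6 CPM in HFD_PFOA livers, against 37.9, 38.8, 36.1 and 40.6 CPM in HFD_vehicle livers. Its groups overlapped, CD_PFOA 1 being above the rest of its group. The Pfkl log2 fold change with PFOA was -0.15 ± 0.11 on CD (SE; edgeR adjusted p = 0.35, not called) and 0.08 ± 0.11 on HFD (adjusted p = 0.68, not called). Pfkp, the platelet form, averaged 3.98 ± 1.003 CPM in CD_PFOA and 4.11 ± 1.998 CPM in CD_vehicle livers (SD, n = 4 each) and was not called in any comparison of all 16 libraries. Pfkfb1, the liver's bifunctional enzyme, sets fructose 2,6-bisphosphate and so the balance between glycolysis and gluconeogenesis. Pfkfb1 measured 32.1, 48.1, 52.99 and 49.7 CPM in CD_PFOA livers, against 36.6, 44.1, 61.4 and 74.2 CPM in CD_vehicle livers. On HFD Pfkfb1 had 40.6, 38.8, 38.3 and 38.8 CPM in HFD_PFOA livers, against 44.8, 42.5, 40.1 and 40.7 CPM in HFD_vehicle livers. Both diets showed overlap, with CD_vehicle 3 and 4 high. The Pfkfb1 log2 fold change with PFOA was -0.24 ± 0.17 on CD (SE; edgeR adjusted p = 0.34, not called) and -0.10 ± 0.17 on HFD (adjusted p = 0.77, not called). Pfkfb3 is the inducible form. Pfkfb3 measured 15.5, 15.4, 14.6 and 14.96 CPM in CD_PFOA livers, against 25.8, 20.2, 20.3 and 19.8 CPM in CD_vehicle livers. On HFD Pfkfb3 had 12.2, 14.2, 18.9 and 10.7 CPM in HFD_PFOA livers, against 13.9, 22.7, 17.9 and 18.9 CPM in HFD_vehicle livers. On CD the groups were apart, CD_vehicle 1 being the highest, and on HFD they overlapped. The Pfkfb3 log2 fold change with PFOA was -0.51 ± 0.16 on CD (SE; edgeR adjusted p = 0.027) and -0.39 ± 0.16 on HFD (adjusted p = 0.12, not called). Its CD call was lost in 7 of 23 alternatives, among them leaving out CD_vehicle 1 (-0.41, edgeR adjusted p = 0.091), and its interaction was 0.12 ± 0.23 (edgeR adjusted p = 0.91). Gpi1, which interconverts glucose and fructose 6-phosphate, was not called. Gpi1 averaged 149.9 ± 12.97 CPM in CD_PFOA and 182 ± 69.7 CPM in CD_vehicle livers, and 147 ± 8.40 CPM in HFD_PFOA and 168 ± 11.5 CPM in HFD_vehicle livers (SD, n = 4 each).

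The pentose phosphate pathway begins with G6pdx, glucose 6-phosphate dehydrogenase, its rate-limiting and NADPH-making enzyme. G6pdx measured 9.67, 15.6, 11.8 and 6.99 CPM in CD_PFOA livers, against 14.5, 29.6, 28.6 and 63.9 CPM in CD_vehicle livers. On HFD G6pdx had 13.6, 12.2, 17.8 and 9.04 CPM in HFD_PFOA livers, against 12.7, 7.45, 9.72 and 10.4 CPM in HFD_vehicle livers. CD_vehicle 4 was far above the other 3 of its group, and CD_vehicle 1 lay among the CD_PFOA livers, so the CD groups overlapped. The G6pdx log2 fold change with PFOA was -1.63 ± 0.33 on CD (SE; edgeR adjusted p = 0.0012) and 0.38 ± 0.34 on HFD (adjusted p = 0.51, not called). The CD call held in all 23 alternatives, with a log2 fold change between -1.88 and -1.14. Exons of Ikbkg, on the opposite strand, cover 13.6% of the G6pdx exons, and Ikbkg had 1495 to 2079 counts in CD_PFOA and 1254 to 1659 counts in CD_vehicle livers. G6pdx itself had 171 to 378 counts in CD_PFOA and 347 to 1498 counts in CD_vehicle livers. As libraries were not stranded, reads of the overlap cannot be told apart, and their part in the G6pdx result was not tested. Pgd, the second NADPH-making step, was not called. Pgd measured 85.6, 102, 107 and 98.1 CPM in CD_PFOA livers, against 63.2, 83.2, 121 and 147 CPM in CD_vehicle livers. On HFD Pgd had 83.8, 99.04, 89.9 and 93.6 CPM in HFD_PFOA livers, against 91.01, 76.1, 76.4 and 88.5 CPM in HFD_vehicle livers. The groups overlapped, with a wide spread in CD_vehicle. The Pgd log2 fold change with PFOA was -0.08 ± 0.17 on CD (SE; edgeR adjusted p = 0.8, not called) and 0.14 ± 0.18 on HFD (adjusted p = 0.67, not called). Tkt, transketolase, and Taldo1, transaldolase, run the branch that makes no NADPH. Tkt measured 138, 165, 184 and 182 CPM in CD_PFOA livers, against 171, 216, 226.4 and 258 CPM in CD_vehicle livers. On HFD Tkt had 170.2, 166, 156 and 160.5 CPM in HFD_PFOA livers, against 219.7, 191, 201 and 204 CPM in HFD_vehicle livers. PFOA livers were below vehicle livers on HFD and overlapped with them on CD. The Tkt log2 fold change with PFOA was -0.38 ± 0.11 on CD (SE; edgeR adjusted p = 0.016) and -0.32 ± 0.11 on HFD (adjusted p = 0.0546, not called). So Tkt was called on CD, where the groups overlap, and missed the threshold on HFD, where they do not; its interaction was 0.06 ± 0.16 (edgeR adjusted p = 0.94). Without CD_vehicle 4 this order turned, Tkt being called on HFD (edgeR adjusted p = 0.0319) and missing the threshold on CD (adjusted p = 0.0549), and without CD_vehicle 1 it was called on both diets. Taldo1 averaged 105 ± 8.61 CPM in CD_PFOA and 98.9 ± 17.2 CPM in CD_vehicle livers, and 114 ± 18.7 CPM in HFD_PFOA and 101 ± 6.55 CPM in HFD_vehicle livers (SD, n = 4 each). Taldo1 was not called in any comparison.

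Levels of different genes can be set side by side only per length, as CPM per kilobase of exon (FPKM), here with exon lengths of GENCODE M21. On that scale Fbp1 (305 FPKM in CD_PFOA and 637 FPKM in CD_vehicle) and Pck1 (237 and 589.9 FPKM) were the highest of the 41 in both groups. In the families of isozymes named next, the liver form exceeded the others in all 4 groups. Pklr was at 42.02 FPKM in CD_PFOA and 131 FPKM in CD_vehicle livers, and Pkm at 2.52 and 2.11 FPKM. Slc2a2 was at 32.5 and 78.4 FPKM in the same groups, and Slc2a1 at 3.33 and 3.14 FPKM. Pck1 exceeded Pck2, which was at 0.354 and 0.297 FPKM, by a still wider margin. Among the phosphofructokinases Pfkl was the highest (4.80 and 5.32 FPKM), followed by Pfkm (2.43 and 4.32 FPKM) and Pfkp (0.297 and 0.307 FPKM). Of 15 liver-enriched forms among the 41, 10 fell with PFOA on CD (median log2 fold change -1.06), which is 66.7%. On HFD 9 fell (median -0.75), which is 60.0%. Of all genes tested, 24.4% were called on CD (12.6% lower) and 16.5% on HFD (7.91% lower). Of 10 forms better known from other tissues, 2 fell and 1 rose on CD (median -0.04), or 30.0%, and 1 rose on HFD (median -0.09), or 10%, shares near those of all genes. Whether the liver-enriched forms differed from the others was not tested, and both lists were chosen with earlier results of these data known. The liver-enriched forms that were not called with PFOA on either diet were Gckr, Pfkl, Pfkfb1 and Gys2.

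With diet, fewer of these genes were called, and CD_vehicle livers are the control here as they are for PFOA on CD, so that those comparisons share 4 livers. Without PFOA, 6 of the 41 (14.6%) were called in HFD_vehicle over CD_vehicle livers, 1 higher and 5 lower. Of all genes tested 10.4% were called, 5.19% higher and 5.21% lower, so the share of the 41 was near that of all genes. Hk2 rose, at 4.32, 6.32, 4.59 and 5.48 CPM in HFD_vehicle, against 0.75, 0.412, 0.14 and 2.22 CPM in CD_vehicle livers (2.54 ± 0.49, adjusted p = 0.0027, edgeR). All HFD_vehicle livers were above all CD_vehicle livers, and without CD_vehicle 4 the change was 3.54 (adjusted p = 2.1e-05). G6pdx (-1.76 ± 0.34, adjusted p = 0.0024) and G6pc (-1.17 ± 0.25, adjusted p = 0.0049) fell most, each HFD_vehicle liver lying below each CD_vehicle liver. Khk (-0.54 ± 0.13, adjusted p = 0.01), Tpi1 (-0.38 ± 0.10, adjusted p = 0.017) and Pklr (-0.62 ± 0.19, adjusted p = 0.0488) fell less. Of these the Pklr call was lost in 16 of 23 alternatives, that of Tpi1 in 4 and that of Khk in 1. This comparison depended on scaling: with library totals the median log2 fold change of all genes moved by 0.22, to 0.19, and 7 of the 41 were called higher (Slc2a1, Hk2, Pfkl, Aldoa, Pkm, Pcx and Gbe1) and 2 lower (G6pc and G6pdx), while 2052 of the 2340 genes called in all were higher. Hk2, G6pc and G6pdx were called in the same direction in every alternative. Without CD_vehicle 1 and 4, 12 of the 41 were called, 3 higher (Slc2a1, Hk2 and Pkm) and 9 lower (Gckr, Tpi1, Pklr, G6pc, Pygl, Phka2, Ppp1r3b, Khk and G6pdx). Leaving out CD_vehicle 1 alone added Slc2a1 as higher and Pfkfb1, Pygl and Pgd as lower, and leaving out CD_vehicle 4 alone added Pfkp, Aldoa and Pkm as higher and lost Pklr. The number of all genes called moved too. It was 1561 with all livers, 2363 without both, 1546 without CD_vehicle 1 alone and 2272 without CD_vehicle 4 alone. Markers of other cells differed between these groups too. Higher in HFD_vehicle than in CD_vehicle were 3 of 4 lipid-associated macrophage markers (median log2 fold change of the 4, 2.55), 4 of 10 macrophage and Kupffer, 4 of 7 stellate, 4 of 4 proliferation and 2 of 7 sinusoidal markers and 2 of 12 clock genes. Lower were 4 of 7 hepatocyte markers, 1 of 7 sinusoidal and 1 of 6 B cell markers and 1 of 8 acute phase genes. The B cell (16.7%), clock (16.7%) and acute phase (12.5%) shares were near the 10.4% of all genes. B cell transcripts summed to 325 CPM in CD_vehicle 4, against 8.52 to 14.5 CPM in the rest of its group. The part of all these markers in the diet result was not tested.

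Among PFOA-treated mice, edgeR called 0 of the 41 between HFD_PFOA and CD_PFOA livers, against 0.06% of all genes tested, and 9 had an unadjusted p under 0.05. Closest was Slc37a4, at 40.1, 35.02, 40.8 and 37.7 CPM in HFD_PFOA, against 45.8, 61.4, 75.1 and 54.5 CPM in CD_PFOA livers. Those groups did not overlap, and the log2 fold change was -0.62 ± 0.13 (edgeR adjusted p = 0.084); DESeq2 called it (adjusted p = 0.0017), the 1 gene of the 41 that it did, and edgeR called it without CD_vehicle 1 (adjusted p = 0.0465) and without CD_vehicle 4 (adjusted p = 0.0379). G6pc had 260.2, 136, 223 and 218.7 CPM in HFD_PFOA and 156, 168, 231 and 174 CPM in CD_PFOA livers, which overlapped. G6pdx had 13.6, 12.2, 17.8 and 9.04 CPM in HFD_PFOA and 9.67, 15.6, 11.8 and 6.99 CPM in CD_PFOA livers, likewise overlapping.

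**Figure D5:**
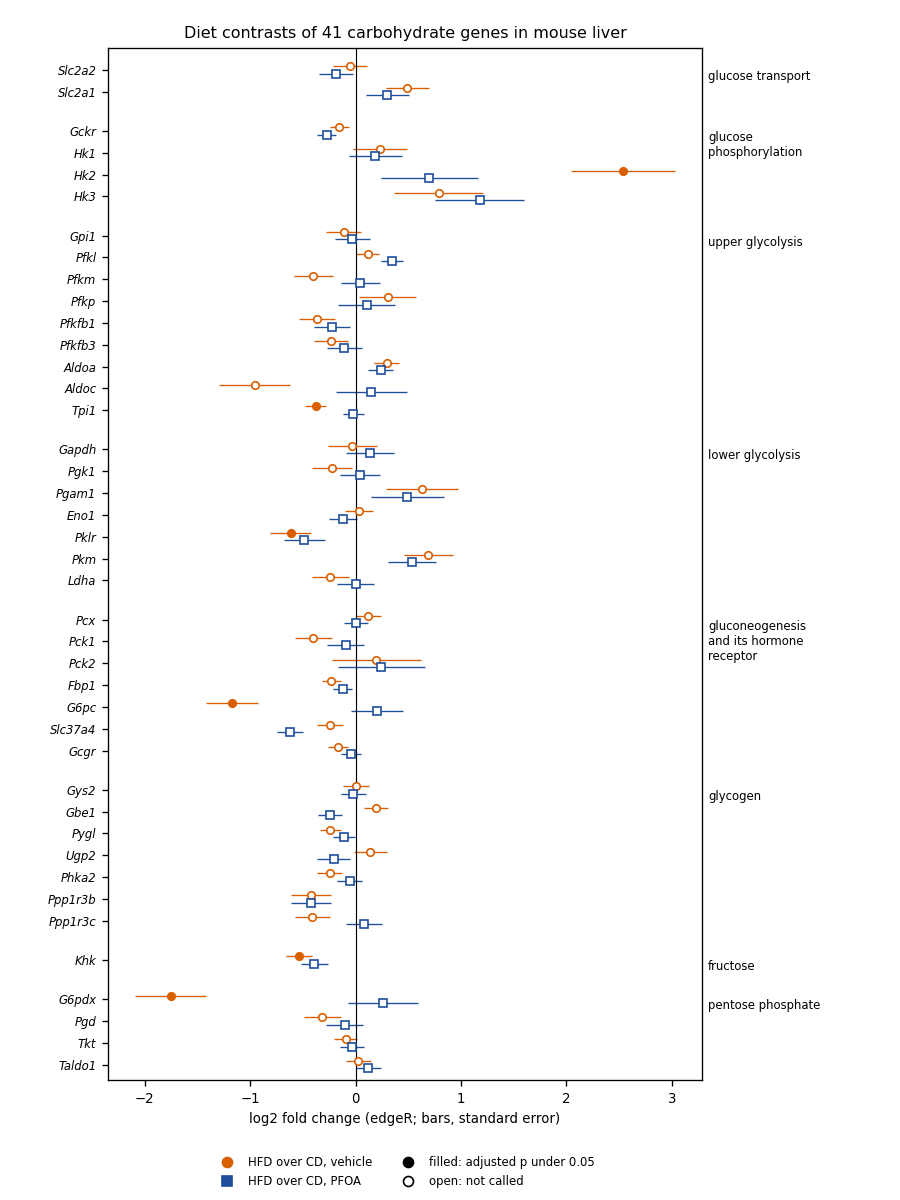
Log2 fold change of HFD over CD for each of the 41 genes, by pathway arm, in vehicle-treated mice (orange circles) and in PFOA-treated mice (blue squares), with bars for the standard error and filled symbols for an edgeR adjusted p under 0.05. Filled are 6 circles, Hk2 to the right of 0 and Tpi1, Pklr, G6pc, Khk and G6pdx to the left, and 0 squares.

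Whether the response to PFOA differed between diets was tested as an interaction, the PFOA effect on HFD minus that on CD. edgeR called 0 of the 41, against 0.207% of all genes tested, and 7 had an unadjusted p under 0.05: Hk2, Aldoc, Tpi1, G6pc, Slc37a4, Gbe1 and G6pdx. DESeq2 called 2, G6pc (adjusted p = 0.0395) and G6pdx (adjusted p = 0.0285). The interaction was 2.01 ± 0.47 (edgeR adjusted p = 0.086) for G6pdx, 1.37 ± 0.35 (edgeR adjusted p = 0.11) for G6pc and -1.84 ± 0.67 (edgeR adjusted p = 0.27) for Hk2. For G6pc and G6pdx the PFOA livers of the diets overlapped, and CD_vehicle had the highest group mean. Without CD_vehicle 4, edgeR called all 3: G6pc at 1.58 (adjusted p = 0.0067), G6pdx at 1.52 (adjusted p = 0.039) and Hk2 at -2.84 (adjusted p = 0.0079). Leaving out CD_vehicle 1 alone, G6pdx alone was called, at 2.26 (adjusted p = 0.0080). Among all genes tested, the interaction called 31 with all livers, 352 without CD_vehicle 4 and 106 without CD_vehicle 1. For the 13 genes lower on both diets the adjusted p of the interaction was 0.28 or more, which does not show that their responses were alike.

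Beyond the 41, a list of 59 other carbohydrate genes had 54 tested. On CD 8 rose and 11 fell with PFOA (median log2 fold change -0.11), and on HFD 7 rose and 8 fell (median 0.01). That is 35.2% of the tested list on CD, against 24.4% of all genes tested, and 27.8% on HFD, against 16.5%. This list too was chosen with earlier results of these data known, so its shares only describe it. Fbp2, the fructose bisphosphatase of muscle, rose while its liver counterpart Fbp1 fell. Fbp2 averaged 5.12 ± 0.519 CPM in CD_PFOA and 0.055 ± 0.067 CPM in CD_vehicle livers, and 8.47 ± 0.736 CPM in HFD_PFOA and 0.315 ± 0.345 CPM in HFD_vehicle livers (SD, n = 4 each). The Fbp2 log2 fold change was 6.40 ± 0.71 on CD (edgeR adjusted p = 1.4e-06) and 4.67 ± 0.56 on HFD (adjusted p = 6e-06). Galk1, galactokinase, rose on CD (0.89 ± 0.10, adjusted p = 1.2e-06), as did Slc16a1, the lactate and pyruvate transporter MCT1 (0.75 ± 0.09, adjusted p = 3.8e-06; on HFD 0.96 ± 0.09, adjusted p = 2.2e-07). Got1, the cytosolic aspartate aminotransferase, fell on CD (-1.95 ± 0.25, adjusted p = 8.3e-06), and Tkfc, the triokinase of fructose breakdown, fell on HFD (-1.27 ± 0.13, adjusted p = 6.2e-07). With HFD in vehicle-treated mice 1 rose and 10 fell (20.4%, against 10.4% of all genes), led by Got1 (-1.58 ± 0.25, adjusted p = 0.00054), the mitochondrial pyruvate carrier subunit Mpc2 (-0.49 ± 0.08, adjusted p = 0.00079), Galt of galactose breakdown (-0.58 ± 0.12, adjusted p = 0.0053) and the malate dehydrogenase Mdh1 (-0.40 ± 0.09, adjusted p = 0.0092). Between HFD_PFOA and CD_PFOA edgeR called 0 of the list (8 with an unadjusted p under 0.05, 2 called by DESeq2), and in the interaction 0 (8 with an unadjusted p under 0.05, 1 called by DESeq2). Names follow the smallest p in each comparison, so a PFOA value given for CD or HFD alone does not show a difference between diets.

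Of 38 regulators of glucose metabolism, all tested, 10 rose and 12 fell with PFOA on CD (57.9%, against 24.4% of all genes tested), and 6 rose and 11 fell on HFD (44.7%, against 16.5%). The list was chosen with earlier results of these data known, so its shares are a description and not a test. Mlxipl, which encodes ChREBP, rose on HFD (1.02 ± 0.14, adjusted p = 3.1e-05, edgeR) and on CD (0.71 ± 0.14, adjusted p = 0.00088), while Pklr fell on both. Txnip, another known ChREBP target, rose on CD (1.64 ± 0.19, adjusted p = 2.4e-06) and on HFD (1.32 ± 0.19, adjusted p = 4.2e-05). Creb3l3, a liver transcription factor of the fasting response, rose on CD (0.68 ± 0.10, adjusted p = 3.2e-05) and on HFD (0.75 ± 0.10, adjusted p = 1.7e-05). Klf15, a glucocorticoid-responsive factor that raises gluconeogenesis, fell on CD (-0.79 ± 0.12, adjusted p = 4.7e-05), and Hif1a, a regulator of glycolysis under low oxygen, rose on HFD (0.46 ± 0.07, adjusted p = 0.00015). Ppara rose with PFOA on CD (0.86 ± 0.10, adjusted p = 1.8e-06) and with HFD in vehicle-treated mice (0.75 ± 0.10, adjusted p = 0.00013). In that diet comparison 3 regulators rose and 5 fell (21.1%, against 10.4% of all genes), among them Pparg (0.63 ± 0.15, adjusted p = 0.012), Nr0b2, a repressor (0.58 ± 0.15, adjusted p = 0.016), and Nr1h3, which encodes LXR alpha (-0.33 ± 0.09, adjusted p = 0.02). edgeR called 0 regulators between HFD_PFOA and CD_PFOA (2 with an unadjusted p under 0.05, 2 called by DESeq2) and 0 in the interaction (8 with an unadjusted p under 0.05, 2 called by DESeq2). Regulators are named by smallest p in each comparison, so a PFOA value given for CD or HFD alone does not show a difference between diets.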

How the data were processed

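Whole-liver RNA of 16 mice was sequenced from non-stranded libraries, per the labels' protocols. Values are raw read counts for each gene, as the authors deposited them. The submitters' processing notes name bcl2fastq 2.20.0.422, Trimmomatic 0.33, STAR 2.5.2b, featureCounts and Subread 1.6.0, with build GRCm38 (mm10). Which annotation release they used is not stated in the sources used here.

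Groups come from the labels; replicates are numbered by record and pair no mice. Libraries of a group differed by more than sampling noise (chi-square 8.13 to 138 for each degree of freedom), and each counts as 1 replicate. edgeR 4.0.16 kept 14998 of 53465 genes (filterByExpr), which were scaled by TMM and tested with glmQLFit and glmQLFTest (12 residual degrees of freedom) in 5 contrasts. Benjamini-Hochberg adjustment ran over all genes tested, with calls under 0.05. Log2 fold changes use a prior count of 0.125, and each SE is the size of the change over the square root of F. The fit was tested on simulated data.

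Alternatives were RLE factors, library totals, no filter, a mean CPM of at least 1, DESeq2 1.42.0, fits of 2 groups, leaving out each library, and leaving out CD_vehicle 1 and 4 together. Precision covers the spread between mice. Any of the 41 genes may be named, with values in every library for 26, and up to 4 genes of smallest p from each further list. The members and lists were chosen with earlier results of these data known. Some listed genes are counted in totals and are not reported here by name. Exon lengths and shared words are from GENCODE M21, and promoters from RefSeq (GRCm38.p6). R 4.3.3 was used.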

Additional observations from a re-analysis of the deposited data

Results flagged for a closer look

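Of 104 groups of 4 livers (26 genes in 4 groups), 9 held a liver whose gap to its nearest neighbour passed the 95% limit of Dixon's test; chance flags about 1 in 20. In 4 of the 9 the liver was CD_vehicle 1, in each case high. Ldha, lactate dehydrogenase A, was at 986.6 CPM there, against 459 to 519.6 CPM in the other 3. Pck1, the cytosolic carboxykinase, was at 2741 CPM, against 1735 to 1823 CPM. Gcgr, the glucagon receptor, was at 200.1 CPM, against 147 to 152 CPM, and Pfkfb3, the inducible bifunctional enzyme, at 25.8 CPM, against 19.8 to 20.3 CPM. That liver also had the highest acute phase transcripts, and the part of this in its values was not tested. CD_vehicle 4 was high in Pck2, the mitochondrial carboxykinase, at 4.87 CPM, against 1.33 to 1.67 CPM in the other 3. CD_PFOA 1 was high in Aldoa, at 113.5 CPM, and in Pfkl, at 36.0 CPM. HFD_PFOA 1 was high in Pcx, at 538.7 CPM, and HFD_PFOA 3 was low in Khk, at 100.6 CPM. The interaction called 0 of the 41 genes in edgeR, so no difference between diets was marked.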

How the results depend on the processing

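No paired analysis was possible because the labels pair no mice, and the replicate numbers used follow the order of the records. Of the calls made, 16 of 20 on CD, 14 of 15 on HFD and 3 of 6 with HFD in vehicle held in every alternative (23 each). The calls lost in some were Gcgr, Eno1, Pfkfb3 and Tkt (PFOA on CD), Aldoa (PFOA on HFD), and Pklr, Tpi1 and Khk (HFD in vehicle). For the 26 genes with values in every library, 2769 of 2964 values kept their direction and side of the threshold, 60 newly passed it and 46 no longer passed it. In 89 more the sign changed where the value was called in neither fit (size in the main test at most 0.24), and 0 called values reversed. Leaving out 1 library gave 16 to 21 called with PFOA on CD, 14 to 17 with PFOA on HFD, 4 to 10 with HFD in vehicle, 0 to 1 with HFD in PFOA-treated mice and 0 to 3 in the interaction; the 10 came without CD_vehicle 1 and the 3 without CD_vehicle 4. With CD_vehicle 1 and 4 both left out, 12 were called with HFD in vehicle, 1 with HFD in PFOA-treated mice and 3 in the interaction. For HFD in PFOA-treated mice the count was 1 with no filter, 1 with DESeq2 and 1 with fits of 2 groups, always Slc37a4. For the interaction it was 2 with no filter and 2 with DESeq2, G6pc and G6pdx. The number of all genes called in these comparisons moved too, for HFD in PFOA-treated mice 9 in the main test, 179 with DESeq2 and 129 with fits of 2 groups, and for the interaction 31, against 290 with no filter, 209 with DESeq2 and 352 without CD_vehicle 4. With library totals the share of higher calls among all genes called was larger for PFOA on CD (2160 of 3536, against 1763 of 3656). In the interaction, library totals moved the median of all genes by -0.13. The causes were not tested. Pck2, Hk2 and Pgam1 had few counts, and their standard errors were among the widest. The part of depth in those errors was not tested.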
